A study of Mus musculus with 8 samples.

Results

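Lymphatic endothelial marker genes were examined by RNA-sequencing of the tumor endothelium of B16-F10 melanoma, a mouse melanoma cell line grown under the skin. They were chosen by symbol as Prox1, Lyve1, Flt4, Pdpn, Reln, Mmrn1, Stab1 and Stab2, and all 8 were among the 20057 genes measured. The tumors grew in male C57BL/6 mice that were 8 weeks old and had received 250000 B16-F10 cells. Antibody was injected beside the tumor 2 times, on days 13 and 16, at 30 µg each, and was either the agonistic CD40 mAb FGK4.5 or its rat IgG2a isotype control (2A3). Tumors were taken 1 day after the second injection according to the main methods of the paper. Its supplement gives 1 and 4 days for the sorting experiments. Live cells that lacked the leukocyte marker CD45 and carried CD31, the product of Pecam1, were sorted, about 100000 per tumor, and 10 ng of RNA went into each library. There is 1 library per tumor, named here by mouse. Mice 5N, 6L, 6R and 10N received agonistic CD40 mAb (n = 4), whereas mice 5L, 7N, 8N and 9L received isotype control (n = 4). The sort did not separate lymphatic from blood vessel endothelium, so each value is an average over all the cells collected from a tumor. Fewer lymphatic cells cannot be told apart from less RNA per lymphatic cell.

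Lymphatic vessels drain fluid and cells from tissues and carry antigen and dendritic cells to lymph nodes. Prox1, a homeobox transcription factor, sets and maintains lymphatic identity and acts together with Sox18 and Nr2f2. Flt4 (VEGFR-3) is the receptor for VEGF-C and VEGF-D, the main growth signals of lymphatic vessels. Lyve1 encodes a hyaluronan receptor, Pdpn the mucin-like glycoprotein podoplanin, Reln the secreted protein reelin, and Mmrn1 the secreted protein multimerin 1. Stab1 and Stab2 encode scavenger receptors. Several of these genes are not restricted to lymphatic vessels. Podoplanin is also made by fibroblasts, Stab1 and Lyve1 by some macrophages, Mmrn1 by platelets, Flt4 by growing blood vessels, and Stab2 and Lyve1 by sinusoidal endothelium.

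Recovered reads on genes ranged from 12512772 to 64938728 per library with agonistic CD40 mAb and from 2971689 to 35583141 with isotype control, and the 3 shallowest libraries were 5L, 7N and 8N. The endothelial genes Pecam1 and Cdh5 had at least 7671 normalized reads in every library, and the leukocyte gene Ptprc (CD45) at most 21.1. The fibroblast gene Pdgfra (423 to 2041 normalized reads), the mural cell gene Pdgfrb (1581 to 4810) and the melanoma gene Mlana (493 to 1491) were also detected in every library. Library 5L stood apart, with the fewest reads, the lowest sum of 15 pan-endothelial markers (51505 normalized reads, against 54309 to 84664 in the other 7) and the highest sum of 7 melanoma markers (93734, against 35745 to 60850). Library 6L had the highest pan-endothelial sum. The sum of 10 fibroblast markers was above the pan-endothelial sum in every library, for example 90579 against 51505 normalized reads in 5L and 178739 against 84664 in 6L. The melanoma sum was above it in 5L only. RNA of other cells was thus present at high levels, and sums over different genes do not give shares of cells.

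The members differed widely in level. Per kilobase of exon, which allows genes to be compared, Stab1 had the highest mean level, 501 ± 131 normalized reads per kilobase (SD, n = 8 libraries). Pdpn followed with 375 ± 112 and Flt4 with 295 ± 68.6. Stab1 was above Pdpn in 6 of 8 libraries and Pdpn above Flt4 in 6 of 8, so that the order of these neighbours was not the same in every tumor. Lyve1 (144 ± 96.5) and Mmrn1 (86.9 ± 56.4) came next, and each was below the gene before it in 8 of 8 libraries. Reln reached 12.3 ± 8.09 and Prox1 7.79 ± 3.94 normalized reads per kilobase, with Reln above Prox1 in 6 of 8 libraries. Prox1, the factor that defines lymphatic endothelium, was thus the weakest of the 7 members with a group mean above 10 normalized reads. Stab2 was close to the limit of detection at 0.362 ± 0.293 normalized reads per kilobase.

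**Figure D1:**
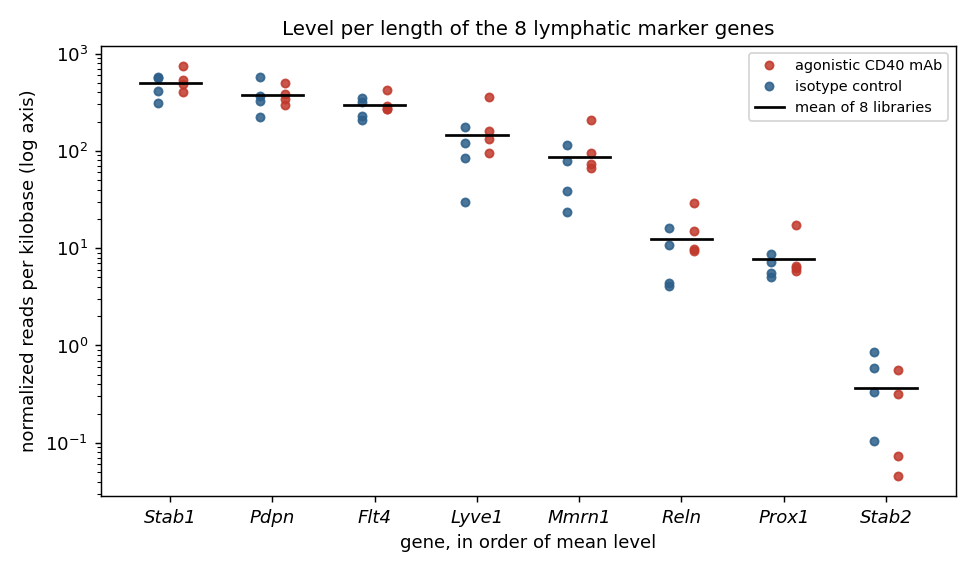
Level of the 8 lymphatic marker genes in normalized reads per kilobase of exon, on a log axis, with 1 point per library (red, agonistic CD40 mAb; blue, isotype control) and a black line at the mean of 8 libraries. Mean levels run from 501 for Stab1 to 0.362 for Stab2, and the points of each gene overlap those of the next in the order, apart from Prox1 and Stab2.

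Prox1 had 52.4, 144, 48.7 and 55.2 normalized reads in 5N, 6L, 6R and 10N, and 46.4, 42.8, 73.5 and 60.2 in 5L, 7N, 8N and 9L. A single library, 6L, lay far above the others, and the remaining 3 with agonistic CD40 mAb lay within the range of the isotype control. These values rest on between 18 and 445 reads per library, so that counting error alone allows 25.4 to 67.7 in 7N (exact Poisson 95% interval). The ratio of group means was 1.35, and the log2 fold change from limma, a linear model fitted across all 12969 genes with a larger group mean above 10, was 0.30 (standard error 0.35, unadjusted p = 0.417). Without 6L the log2 fold change was -0.065.

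Lyve1 varied most among the tested members. It had 382, 1026, 461 and 278 normalized reads with agonistic CD40 mAb (5N, 6L, 6R, 10N) and 85.5, 245, 509 and 347 with isotype control (5L, 7N, 8N, 9L). The highest library held 11.99 times the value of the lowest, and the groups overlapped, with 8N above 3 of the 4 libraries treated with agonistic CD40 mAb. Group means were 537 ± 335 and 297 ± 178 (SD, n = 4 each), a ratio of 1.81 and a log2 fold change of 0.94 (95% interval -0.21 to 2.08, limma unadjusted p = 0.10, exact permutation p = 0.257).

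Mmrn1 moved with Lyve1. Its values were 330, 926, 421 and 295 normalized reads with agonistic CD40 mAb and 105, 174, 513 and 349 with isotype control, in the same order of libraries. Again 6L was highest, 5L lowest and 8N the highest of the isotype control libraries. The ratio of group means was 1.73 and the log2 fold change 0.88 (95% interval -0.19 to 1.95, limma unadjusted p = 0.0965, exact permutation p = 0.257).

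Reln had 110, 343, 176 and 114 normalized reads with agonistic CD40 mAb and 51.3, 47.6, 186 and 126 with isotype control. Here 5L and 7N were both low, and 8N and 9L lay between the values of the other group. The ratio was 1.81 and the log2 fold change 0.92 (95% interval -0.14 to 1.98, limma unadjusted p = 0.0812, exact permutation p = 0.257), the lowest limma p among the members.

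Flt4 and Stab1, the members with the most reads, had the narrowest spread between libraries. Flt4 had 1702, 2648, 1694 and 1802 normalized reads with agonistic CD40 mAb and 1435, 1297, 2173 and 1992 with isotype control. In Stab1 the values were 3913, 5902, 3193 and 4279 with agonistic CD40 mAb and 3280, 2503, 4570 and 4439 with isotype control. In both genes 6L was highest and 7N lowest, and the other 3 libraries with agonistic CD40 mAb lay inside the isotype control range. The ratio of group means was 1.14 for Flt4 (log2 fold change 0.19, 95% interval -0.25 to 0.63, limma unadjusted p = 0.355). For Stab1 it was 1.17 (log2 fold change 0.23, 95% interval -0.27 to 0.73, limma unadjusted p = 0.334). Without 6L the log2 fold changes were 0.040 for Flt4 and 0.069 for Stab1.

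Pdpn followed another order of libraries. It had 907, 613, 535 and 705 normalized reads with agonistic CD40 mAb and 401, 1037, 662 and 590 with isotype control, so that its highest library was 7N, the lowest library for Prox1, Reln, Flt4 and Stab1. The ratio of group means was 1.03 and the log2 fold change 0.092 (95% interval -0.49 to 0.67, limma unadjusted p = 0.731). Without 5L the log2 fold change was -0.13.

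Stab2 was counted with 22, 1, 1 and 8 reads in 5N, 6L, 6R and 10N and with 2, 3, 2 and 4 reads in 5L, 7N, 8N and 9L. Since the libraries differ in depth, this corresponds to 2.59, 0.377, 0.602 and 4.65 normalized reads with agonistic CD40 mAb and 4.89, 7.14, 2.72 and 0.867 with isotype control. The groups overlapped, with a lower mean with agonistic CD40 mAb (2.05 against 3.90, log2 difference -0.72, exact permutation p = 0.257), the opposite direction to that of the other 7 members. Its group means were below the limit of 10 and it was not tested in limma. In 5L, 7N and 8N a floor of 3 reads stands for 7.33, 7.14 and 4.08 normalized reads, so a difference in Stab2 was not detectable at this depth. Clec4g, a gene of liver sinusoidal endothelium, was at 0 reads in 4 of 8 libraries and at no more than 12 in the others.

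**Figure D2:**
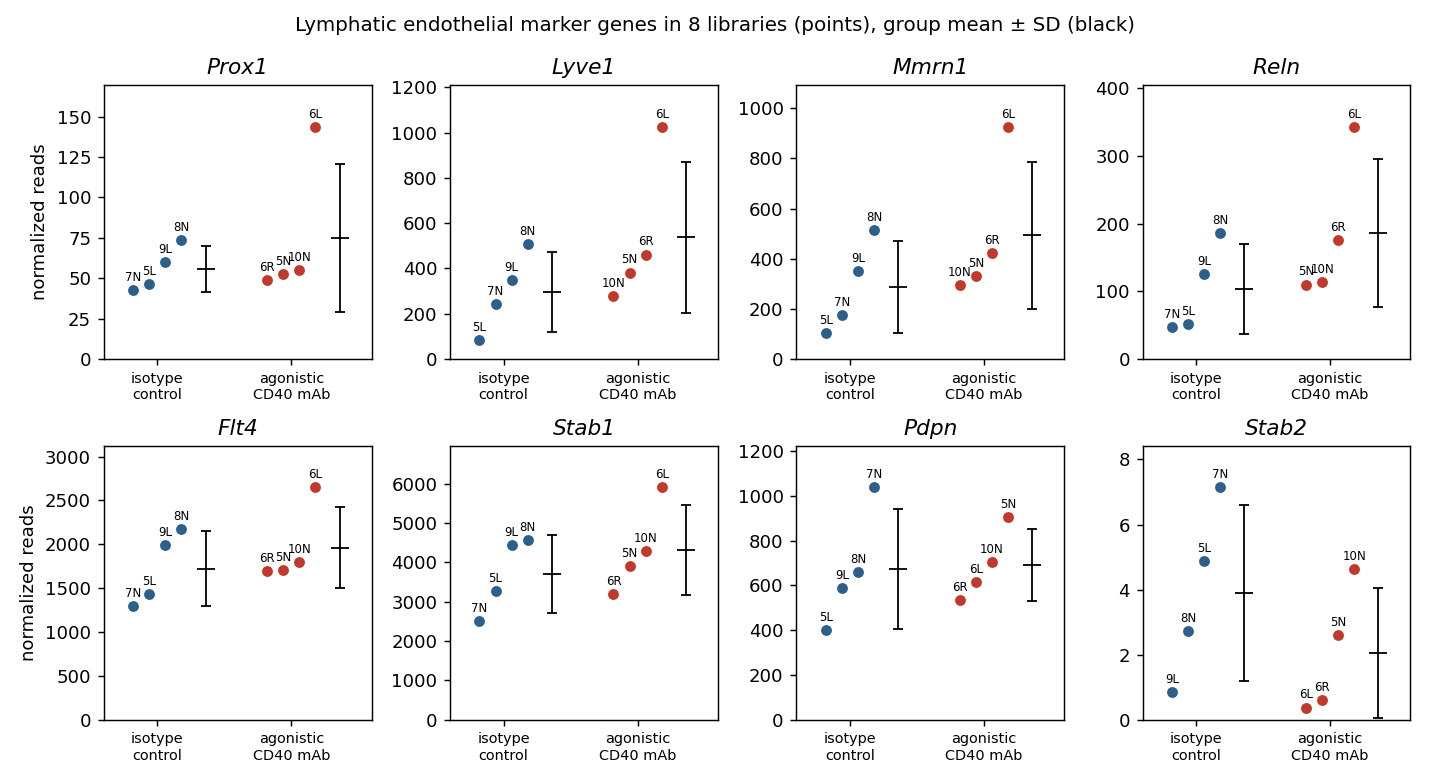
Normalized reads of each of the 8 lymphatic marker genes per library, with the mouse name beside each point (blue, isotype control; red, agonistic CD40 mAb), on linear axes that start at 0. Black marks give the group mean ± SD (n = 4), and in every panel the groups overlap, with 6L at the top for Prox1, Lyve1, Mmrn1, Reln, Flt4 and Stab1.

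None of the 7 tested members passed the threshold, a limma p of at most 0.05 together with group means that differ 1.5-fold or more, which 197 of the 12969 genes tested passed (1.52%). Likewise 0 of 7 had a limma p of at most 0.05, against 261 genes or 2.01% of those tested, and 0 of 7 had groups that did not overlap, against 204 genes or 1.57%. With edgeR and with DESeq2 on the recovered reads 0 of 7 members passed as well. The Benjamini-Hochberg adjusted p from limma was 1.00 for each member when rounded, and 2 genes in all had an adjusted p under 0.05. All 7 log2 fold changes were above 0, as were those of 6653 of the 12969 genes, and their median was 0.30 against 0.0046 for all genes tested. This median was 0.14 without 6L, 0.45 without 6R, 0.14 after scaling to endothelial markers, where Pdpn was below 0 and the median of all genes tested was -0.16, and 0.0068 with library quality weights, where Prox1, Flt4 and Stab1 were below 0. Lyve1, Reln and Mmrn1 had a ratio above 1.5 without reaching the limit on p. The intervals of these 3 genes reach from a slight decrease to about 2 on the log2 scale, so a difference of that size could not be told from none.

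The outcome for Lyve1, Mmrn1 and Reln turned on isotype control library 8N, in which all 3 were high. Without 8N each passed the threshold in limma, Lyve1 with a ratio of 2.38 (log2 fold change 1.28, unadjusted p = 0.0325), Mmrn1 with 2.36 (1.25, unadjusted p = 0.0215) and Reln with 2.48 (1.28, unadjusted p = 0.0181). In that fit 252 of 13004 genes passed, or 1.94%. Other libraries moved them the other way. Without 5L the log2 fold changes were 0.43 for Lyve1, 0.49 for Mmrn1 and 0.67 for Reln, and without 6L they were 0.56, 0.52 and 0.57. With weights for library quality they were 0.17, 0.090 and 0.18.

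**Figure D3:**
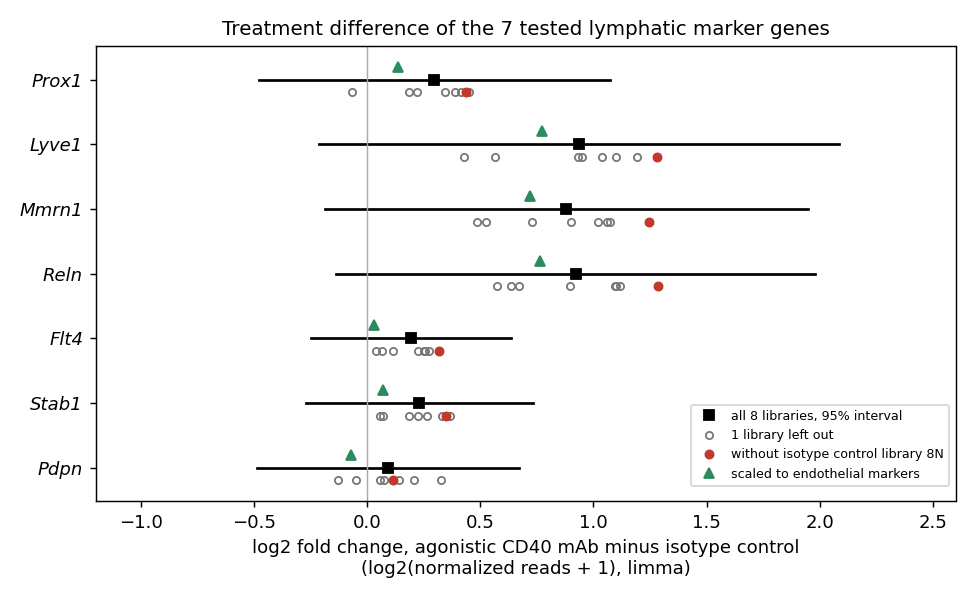
Log2 fold change between agonistic CD40 mAb and isotype control for the 7 tested members, with the 95% interval from limma (black), the value after leaving out each library (open circles; red without 8N) and the value after scaling to endothelial markers (green triangles). All 7 intervals include 0, and the values of Lyve1, Mmrn1 and Reln reach 1.28, 1.25 and 1.28 without 8N.

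To compare the members per endothelial RNA, each value was divided by the sum of 15 pan-endothelial markers, among them Pecam1, Cdh5, Kdr and Tie1, in the same library. The genes then fell apart in how much they still varied. Flt4 stayed within 23.9 to 31.3 reads per 1000 endothelial marker reads, a 1.31-fold range, and Stab1 within 46.1 to 72.0, a 1.56-fold range. Prox1 ranged from 0.758 to 1.70 and Pdpn from 7.24 to 19.1. The range remained wide for Reln (4.63-fold, 0.876 to 4.05), Mmrn1 (5.36-fold, 2.04 to 10.9) and Lyve1 (7.29-fold, 1.66 to 12.1).

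On this scale the ratio of group means was 1.02 for Flt4 and 1.05 for Stab1 (exact permutation p = 0.83 and 0.714). It was 1.62 for Lyve1, 1.57 for Mmrn1 and 1.65 for Reln (exact permutation p = 0.200, 0.257 and 0.171). In limma, with all genes scaled in this way, these 3 genes passed the threshold at unadjusted p of 0.0487, 0.0476 and 0.0429, so the scaling decides the call. Of all genes, 176 or 1.36% passed on this scale. Without 5L their log2 differences per endothelial marker fell to 0.35, 0.41 and 0.59.

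**Figure D4:**
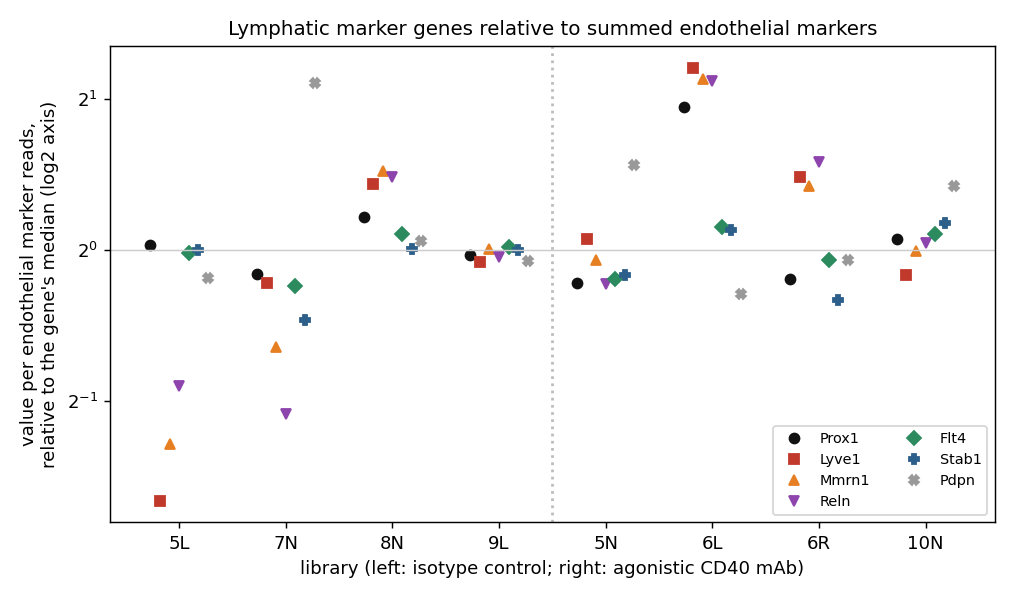
Value of each of the 7 tested members divided by the summed endothelial markers of the same library, relative to the median of that gene over 8 libraries, on a log2 axis with isotype control libraries on the left and agonistic CD40 mAb libraries on the right. The points of Flt4 and Stab1 spread least, Lyve1, Mmrn1 and Reln are highest in 6L and all low in 5L, Mmrn1 and Reln are also low in 7N, and Pdpn is highest in 7N.

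Over the 8 libraries 6 of the 7 tested members rose and fell together. Pearson's r of log2 values was between 0.63 and 0.97 for the 15 pairs without Pdpn, and Spearman's rho between 0.64 and 1. Of all 21 pairs, 13 had an adjusted p under 0.05 for Pearson's r and 10 for Spearman's rho (exact permutation over 40320 pairings, Benjamini-Hochberg over 21 pairs), and none of these involved Pdpn. The closest pair was Lyve1 and Mmrn1, with r = 0.97 and rho = 0.98 (exact permutation p = 4.96e-05, adjusted p = 0.000521). The ratio of Lyve1 to Mmrn1 stayed between 0.814 and 1.41 while Lyve1 itself ranged 11.99-fold. Reln and Mmrn1 had r = 0.97 and rho = 0.95 (exact permutation p = 0.000347, adjusted p = 0.00243), and Flt4 and Stab1 had r = 0.95 and rho = 0.98 (exact permutation p = 0.000645, adjusted p = 0.00339). Prox1 and Flt4 ranked all 8 libraries alike, with rho = 1 and r = 0.92 (exact permutation p = 2.48e-05, the smallest they can give, adjusted p = 0.000521).

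These relations rested in part on the libraries at the ends. After leaving out the 2 libraries farthest from the median, r was 0.93 for Lyve1 and Mmrn1 (without 6L and 5L), 0.98 for Reln and Mmrn1 (without 6L and 7N), 0.85 for Flt4 and Stab1 (without 6L and 7N) and 0.96 for Prox1 and Flt4 (without 6L and 8N). An adjusted p under 0.05 was left for 4 of 21 pairs, Lyve1 with Mmrn1, Reln with Mmrn1, Prox1 with Flt4 and Prox1 with Stab1, whereas that of Flt4 with Stab1 rose to 0.102 (exact permutation). Without 6L alone 7 pairs did. The relation of Prox1 to Lyve1 fell from r = 0.75 to 0.42 and that of Reln to Stab1 from 0.81 to 0.40, so both rest on the libraries left out. Within treatment groups, after each group mean had been subtracted, r was between 0.57 and 0.97 for the 15 pairs and 8 pairs had an adjusted p under 0.05.

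Most members also moved with the endothelial sum of the library. With the pan-endothelial sum, the 6 members other than Pdpn had r between 0.84 and 0.94, and between 0.74 and 0.84 without 6L and 5L. Adjusted over 70 relations, the exact permutation p of r was 0.0347 for Prox1, Lyve1, Flt4, Reln and Mmrn1 and 0.0977 for Stab1. That of Spearman's rho was 0.0799 or more. Without 6L and 5L the unadjusted exact permutation p was 0.0292 for Flt4, 0.0375 for Mmrn1 and at least 0.0556 for the others. After division by this sum the pairs Lyve1 with Mmrn1 and Reln with Mmrn1 still had r of 0.96 and 0.95, but Lyve1 and Stab1 had 0.052, and 4 of 21 pairs had an adjusted p under 0.05. Lyve1, Mmrn1 and Reln on the one side, and Flt4 and Stab1 (r = 0.87 after division) on the other, thus formed the closest groups. Both genes of a pair share the same divisor, which can itself change r, and its part was not tested. Total reads per library had r between 0.22 and 0.54 with the members (lowest exact permutation p = 0.169 among 7 members).

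Pdpn stood apart from the other members. Its r with them was between -0.20 and 0.28 (lowest exact permutation p = 0.515, adjusted p = 0.676), and its r with the pan-endothelial sum was 0.081. With the sum of 10 fibroblast markers it was 0.82, and rho was 0.86 (exact permutation p = 0.0122, adjusted p = 0.106 over 70 relations of members to marker sums and total reads). Without 6R and 5L this r was 0.47, so the relation to the sum rests on those libraries. Single fibroblast markers differed. Dcn, the matrix proteoglycan decorin, had the highest r with Pdpn of the 10 markers, 0.98, and kept 0.97 without 6R and 5L, and Pdgfra had 0.94 and 0.88. Col1a1, a fibrillar collagen with many reads, had 0.58 and -0.16, and the lowest r was that of Fbln1 (-0.30 and -0.50). Without 5L and 7N, the lowest and highest libraries of Pdpn, Dcn had 0.96, Pdgfra 0.90, Col1a1 0.28 and Fbln1 0.17. The lowest of the 10 markers was then at -0.35, so the weaker relations changed with the libraries left out. The median over the 10 markers was 0.84, against 0.54 without 6R and 5L and 0.72 without 5L and 7N. The fibroblast sum ranged from 123528 to 252242 normalized reads with agonistic CD40 mAb and from 90579 to 221194 with isotype control. Their part in the Pdpn values was not tested.

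**Figure D5:**
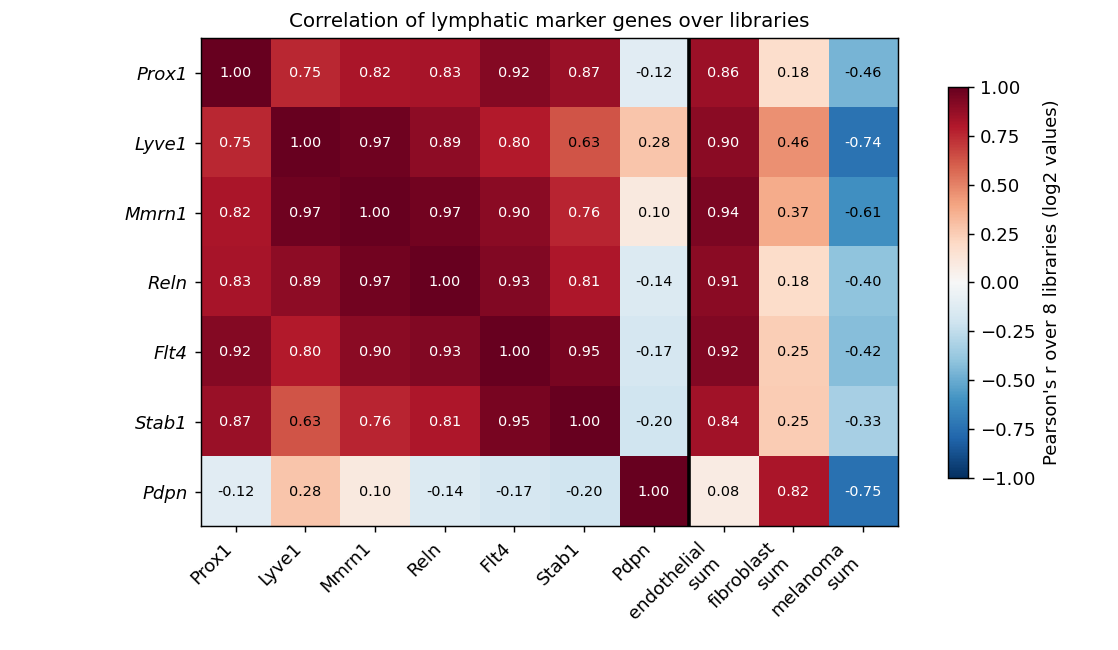
Pearson's r over 8 libraries between the log2 values of the 7 tested members, and of each member with the summed endothelial, fibroblast and melanoma markers (right of the black line). The block from Prox1 to Stab1 lies between 0.63 and 0.97, while the row of Pdpn lies between -0.20 and 0.28 for the other members and reaches 0.82 for the fibroblast sum.

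The genes whose pattern over the 8 libraries was most like each member were found by Pearson's r among all genes tested, as a description. As the highest of 12969 genes over 8 libraries, these r are high in part by selection, and they were not tested. Nearest to Mmrn1 were Il7 (r = 0.99, and 0.99 within treatment groups), Kcnq1 (0.98 and 0.97) and Stac (0.98 and 0.98). Il7, the cytokine interleukin 7, is made by lymphatic endothelium and other stromal cells. It had 10.6, 37.3, 12.6 and 9.87 normalized reads in 5N, 6L, 6R and 10N and 2.44, 4.76, 15.0 and 12.1 in 5L, 7N, 8N and 9L, the same rank order as Mmrn1. Few reads stand behind the low end, since the value of Il7 is 1 read in 5L and 2 in 7N and that of Stac 1 and 3 reads, at or below the floor of 3. Among the nearest to Lyve1 were Ly6e (0.98 and 0.97) and Mmrn1 itself.

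For Reln the nearest genes were Gm1987 (0.98 and 0.98), Ccl21a (0.98 and 0.98) and Srek1ip1 (0.97 and 0.99). Ccl21a encodes a chemokine of lymphatic endothelium that guides dendritic cells. It had 161, 638, 412 and 207 normalized reads with agonistic CD40 mAb and 83.1, 99.9, 404 and 238 with isotype control, with 6L highest, and 5L and 7N lowest as for Reln. Of the 50-base windows of its transcripts, 71.6% also occur in transcripts of other genes, so reads may be split between copies and its level is uncertain. Gm1987 was not matched by symbol in the annotation. Its values were 144, 570, 368 and 185 normalized reads with agonistic CD40 mAb and 75.8, 88.0, 362 and 212 with isotype control. In every library Gm1987 was slightly below Ccl21a. Whether Gm1987 and Ccl21a count the same reads was not tested, so they may not be separate neighbours of Reln.

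For Flt4 the nearest genes were Inpp5a (0.98 and 0.98), Traf7 (0.98 and 0.98) and Epha2 (0.97 and 0.97), and for Prox1 they were Sh3bp5 (0.97 and 0.97), Nrarp (0.96 and 0.96) and Magi1 (0.95 and 0.95). Stab1 was nearest to Tie1 (0.98 and 0.97), an endothelial receptor, then to Lrrc41 (0.97 and 0.98) and Bcl7b (0.97 and 0.97). The neighbours of Pdpn were Medag (0.99 and 0.99), Slco5a1 (0.99 and 0.99) and Rspry1 (0.99 and 0.99). None of these neighbours passed the threshold between treatments.

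A list of 20 further genes known from lymphatic endothelium was looked at in the same way, and 17 of them were tested. Of these, 15 had a log2 fold change above 0, beside 51.3% of all genes tested, with a median of 0.40 against 0.0046. The count past the threshold was 0, beside 1.52% of all genes tested. Among markers of other cells, 7 of 7 tested platelet genes (median 0.52) and 14 of 15 pan-endothelial genes (0.14) were also above 0. Of the mural genes 1 of 9 was above 0, and of the melanoma genes 0 of 7. Much of the shift of the 17 lymphatic genes rests on 5L, the isotype control library that stood apart. Without 5L, 10 of the 17 were above 0 (47.9% of all genes tested) and the median was 0.040. With library quality weights 8 were above 0 (47.1% of all genes) and the median was -0.0044. All 17 were above 0 without 8N (52.6% of all genes), with a median of 0.49. After scaling to endothelial markers 14 were above 0 (20.1% of all genes), with a median of 0.25 against -0.16 for all genes. Without 6L the median was 0.22, and on the recovered reads it was 0.22 in both edgeR and DESeq2. With a library left out, Klhl4 passed the threshold without 6R, 10N or 8N, Ptx3 without 7N and Ccl21a without 8N. The lowest p belonged to Klhl4 (339 ± 59.4 against 236 ± 71.7 normalized reads, SD, n = 4 each, ratio 1.44, limma unadjusted p = 0.0332), whose ratio was below the limit and whose ratio without 5L was 1.28 (limma unadjusted p = 0.0725). The transcription factor Maf followed (ratio 1.33, limma unadjusted p = 0.0649). The genes with the most reads were Nrp2, a co-receptor for VEGF-C, with 2221 ± 212 against 2242 ± 96.7 normalized reads (ratio 0.991), the integrin subunit Itga9 (ratio 1.09) and the transcription factor Sox18 (ratio 1.12).

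Over the 8 libraries, the median r of this list was 0.78 with Lyve1, 0.74 with Mmrn1 and 0.61 with Reln, against medians of 0.12, 0.11 and 0.086 over all genes tested. With Flt4, Prox1 and Stab1 it was 0.55, 0.52 and 0.47. At r of at least 0.75 stood 10 of the 17 genes with Lyve1, 6 with Mmrn1 and 5 with Reln, beside 7.19%, 6.27% and 4.94% of all genes tested. With Flt4 there were 3, with Prox1 2, with Stab1 2 and with Pdpn 1, beside 5.28%, 2.41%, 4.75% and 9.01%. These relations rest largely on 6L and 5L. Without both libraries the median r was 0.35 with Mmrn1, 0.32 with Prox1, 0.29 with Flt4, 0.28 with Lyve1, 0.25 with Reln and 0.16 with Stab1, so that the order among the members was not kept. Then 1 to 3 of the 17 genes reached 0.75 with any member, beside 3.80% to 11.5% of all genes tested. With Pdpn the median r was 0.46 (-0.025 without 6L and 5L), and the gene with the highest r was Ptx3 (0.97), which is also made by fibroblasts.

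The signaling pathway around Flt4 was followed through 41 genes of lymphatic growth, of which 40 were tested. None of the 40 passed the threshold, a count near the 1.52% of all genes tested that passed. Of these, 28 had a log2 fold change above 0, as did 6653 of the 12969 genes tested, and their median was 0.11. Without 5L, 17 of the 40 were above 0 and the median was -0.056, without 6L there were 21 and the median was 0.015, and with library quality weights there were 15 and the median was -0.034. Ppp1r13b (ratio 1.26, limma unadjusted p = 0.0497), Lcp2, an adaptor of blood cells (ratio 1.20, limma unadjusted p = 0.169), and Kdr (ratio 1.19, limma unadjusted p = 0.255) had the lowest p, and without 5L the log2 fold change of Lcp2 was 0.079. The most abundant were the integrin subunit Itgb1 (13686 ± 907 against 14755 ± 2572 normalized reads, SD, n = 4 each), Cdh5, the adhesion molecule VE-cadherin (11917 ± 1478 against 11125 ± 1821), and Kdr, the VEGF receptor VEGFR-2 (8202 ± 1960 against 6890 ± 1234). The ligands of Flt4 were named for their role. Vegfc had 225, 376, 276 and 221 normalized reads with agonistic CD40 mAb and 171, 290, 279 and 272 with isotype control (log2 fold change 0.11, limma unadjusted p = 0.617), and VEGF-D, listed under its older symbol Figf, had 461, 157, 157 and 243 against 63.5, 243, 252 and 166 (log2 fold change 0.52, limma unadjusted p = 0.278). Without 5L the log2 fold changes were -0.064 for Vegfc and 0.082 for Figf. Without 6L that of Vegfc was -0.049, and without 5N that of Figf was 0.19. Both ligands were present in every library, and their groups overlapped.

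Cells that also make some of the members were followed by their own markers. Of 15 macrophage markers 11 were tested, and their sum ranged from 552 to 817 normalized reads with agonistic CD40 mAb and from 389 to 786 with isotype control, with Csf1r, the receptor for the macrophage growth factor, at 21.99 to 47.6 in all libraries. Of the 11, Mrc1 alone passed the threshold, a mannose receptor of macrophages that is also made by sinusoidal and lymphatic endothelium and that was 1 of 3 tested genes of the sinusoidal list. It had 36.3, 41.9, 36.7 and 41.2 normalized reads with agonistic CD40 mAb and 19.6, 30.9, 13.6 and 25.4 with isotype control (ratio 1.74, limma unadjusted p = 0.0189, adjusted p = 0.9997). The groups of Mrc1 did not overlap. Of all genes tested, 1.52% passed the threshold and 1.57% had groups that did not overlap. Mrc1 was named after its values had been seen. This gene passed in 7 of the 8 fits that left out a library, all but that without 8N, where its log2 fold change was 0.63. The sum of 8 platelet markers ranged from 268 to 1046 and from 95.3 to 811, with Pf4 highest in 6L (137 normalized reads) and lowest in 5L (9.78). The macrophage sum had r of 0.61 with Lyve1 and 0.14 with Stab1, and the platelet sum 0.56 with Mmrn1, falling to -0.52 without 6L and 5L (exact permutation p = 0.107, 0.735 and 0.148 over all 8 libraries). Their part in the member values was not tested.

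Gene positions were read from GENCODE M21 (mm10). Stab1 lies on chromosome 14 from 31139013 to 31168641, Pdpn on chromosome 4 from 143267431 to 143299564, Flt4 on chromosome 11 from 49609263 to 49652739 and Lyve1 on chromosome 7 from 110850607 to 110863239. Mmrn1 lies on chromosome 6 from 60924976 to 60989378, Reln on chromosome 5 from 21884454 to 22344702, Prox1 on chromosome 1 from 190118035 to 190170714 and Stab2 on chromosome 10 from 86841198 to 87008025. Flt4 and Mmrn1 are on the plus strand and the other 6 on the minus strand. An exon on the opposite strand overlaps 1.58% of the exon bases of Prox1 (Prox1os), 1.04% of Reln (Gm10475), 1.09% of Stab1 (Nt5dc2) and 1.61% of Stab2 (Gm16268), and the libraries did not mark strand. At most 1.09% of the 50-base windows of any member occur in transcripts of another gene.

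Promoter sequences from RefSeq (GRCm38.p6, the assembly of mm10) were matched to 7 of the 8 members by symbol, all but Lyve1. The 250 bases before the start were searched on both strands for short motifs, of which 4 are described here. The SOX family, to which Sox18 belongs, was searched as AACAAT. Nuclear receptors such as Nr2f2 were searched with the letters TGACCT. For ETS factors, which are active throughout endothelium, the letters were AGGAAG. The TATA box was searched as TATAAA. None of these motifs was required to stand apart from another. Shown are Mmrn1 and Reln, which moved together over the libraries, and Stab1, which had a 1.56-fold range per endothelial marker read. Pdpn, which had r of 0.081 with the pan-endothelial sum, and Prox1 are shown as well. Each sequence reads 5′ to 3′ on the strand of its gene and ends at the base before the start, with motif matches in capitals.
Mmrn1 (chr6:60944067-60944316, plus strand): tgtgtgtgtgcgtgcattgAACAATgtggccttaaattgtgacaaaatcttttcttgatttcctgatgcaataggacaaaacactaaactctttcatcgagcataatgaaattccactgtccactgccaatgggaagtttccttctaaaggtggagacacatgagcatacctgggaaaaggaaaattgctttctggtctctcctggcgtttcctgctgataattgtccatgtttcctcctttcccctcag
Reln (chr5:22344706-22344955, minus strand): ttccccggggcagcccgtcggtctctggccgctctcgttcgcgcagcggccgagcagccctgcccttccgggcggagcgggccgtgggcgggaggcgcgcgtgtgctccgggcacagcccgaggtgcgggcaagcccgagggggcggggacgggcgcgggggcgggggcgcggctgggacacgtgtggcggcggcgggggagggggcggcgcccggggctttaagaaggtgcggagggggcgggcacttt
Stab1 (chr14:31168642-31168891, minus strand): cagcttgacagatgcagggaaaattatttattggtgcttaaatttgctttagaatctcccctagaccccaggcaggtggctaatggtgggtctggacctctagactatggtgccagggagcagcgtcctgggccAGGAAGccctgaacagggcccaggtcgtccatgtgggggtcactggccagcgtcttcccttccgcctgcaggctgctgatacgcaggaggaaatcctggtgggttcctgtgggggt
Pdpn (chr4:143299565-143299814, minus strand): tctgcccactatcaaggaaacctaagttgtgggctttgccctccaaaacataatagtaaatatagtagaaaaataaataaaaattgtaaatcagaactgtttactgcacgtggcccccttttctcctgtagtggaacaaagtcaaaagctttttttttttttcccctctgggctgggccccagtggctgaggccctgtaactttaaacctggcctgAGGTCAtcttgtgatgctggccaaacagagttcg
Prox1 (chr1:190170828-190171077, minus strand, the farther upstream of 2 listed starts): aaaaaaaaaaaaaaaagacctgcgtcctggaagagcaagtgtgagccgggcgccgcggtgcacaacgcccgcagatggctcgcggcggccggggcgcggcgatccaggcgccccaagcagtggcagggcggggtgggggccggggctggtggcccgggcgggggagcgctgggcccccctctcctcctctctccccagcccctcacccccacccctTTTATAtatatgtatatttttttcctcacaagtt

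Mmrn1 held the SOX letters from position -231 to -226, as 9.42% of the 32851 promoters of the same length did, and its RefSeq start lies inside the longer GENCODE gene. Stab1 held the ETS letters from -116 to -111 (29.5% of promoters), and Pdpn the nuclear receptor letters on the opposite strand from -34 to -29 (14.0%). Prox1 held the TATA letters on the opposite strand from -34 to -29 (12.4%). In Stab2, which is not shown, the nuclear receptor letters stood from -164 to -159 and the ETS letters from -40 to -35, both on the opposite strand. The promoters of Reln and Flt4, and that of the other listed start of Prox1, contained none of these 4 motifs. Base composition differed between the pair that moved together, with 42.4% G and C in Mmrn1 and 80% in Reln. A match of letters is a description of the sequence, and binding was not measured.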

How the data were processed

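RNA-seq libraries of tumor endothelial cells from 8 tumors, 4 per treatment, were used, and groups were taken from the sample labels. The authors prepared unstranded TruSeq libraries, aligned the reads to mm10 with TopHat2 and Bowtie2 (2.2.1), counted them per gene with Partek software (6.6) and deposited DESeq2-normalized read counts, a signal that is comparable across the 8 libraries. Of the deposited signal values, 99.9% lay within 0.1 read of a whole multiple of 1 read, so reads were recovered and used for depth, Poisson intervals (counting error only) and the edgeR and DESeq2 alternatives. The correction for harvest day and the flooring described in the methods are not visible in the values. Each library is 1 tumor.

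Of the genes, 12969 had a mean above 10 in at least 1 group, and their log2(value + 1) was fitted with limma 3.58.1 (R 4.3.3), with a variance trend and treatment as the only term, and p was adjusted by Benjamini-Hochberg over these genes. A gene passed when its group means differed 1.5-fold or more in either direction with an unadjusted limma p no higher than 0.05, the limits of the study. For single genes an exact permutation test (two-sided, 70 assignments) was added, which cannot give a p below 0.0286. Correlations were tested over all pairings of 8 libraries. The code was tested on simulated data.

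The members and all gene lists were chosen with earlier results of these data known. Named are every member, the 3 genes of lowest p and the 3 of largest mean in the further lymphatic and the growth lists, the 3 nearest genes of each tested member and defining markers of other cells. Some items chosen in this way are left out here. Vegfc, Figf, Ptx3, Mrc1 and the fibroblast genes Dcn, Col1a1 and Fbln1 were named outside this rule, after their values had been seen. Alternatives were other pseudocounts (0.1 and 10), filters, normalizations and moderation, scaling to endothelial markers, edgeR 4.0.16, DESeq2 1.42.0 and leaving out each library. In the correlations, dividing by endothelial markers, leaving out 1 library at a time, and leaving out 2 libraries for the further lymphatic list and for single fibroblast markers were added after seeing the data. So were the alternatives for the medians of gene lists and for Vegfc and Figf.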

Additional observations from a re-analysis of the deposited data

Results flagged for a closer look

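In the 16 groups of 4 values examined (8 genes in 2 treatments), 2 held a library far from the other 3, where chance gives about 1 in 20 groups. Both were library 6L of the agonistic CD40 mAb group. Prox1 reached 144 normalized reads in 6L, with a gap to the next library of 0.932 of the range of the group, and Flt4 reached 2648 with a gap of 0.887. The same library was also highest for Lyve1, Mmrn1, Reln and Stab1, and it had the highest sum of endothelial markers (84664 normalized reads). Per 1000 endothelial marker reads Prox1 remained highest in 6L, at 1.70.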

How the results depend on the processing

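Over all results and alternatives, 524 recomputed values or counts were labelled the same, 30 reversed direction, 9 newly passed the threshold and 8 counts moved. The cause was not tested. For fold changes the same meant that direction and side of the threshold were kept. For counts it allowed some change, since 286 genes past the threshold without 9L, against 197, were labelled the same. Without a filter 424 genes passed, and with a mean above 50 there were 130. Scaled to endothelial markers, 176 genes passed, with 3 members among them, Lyve1 (0.77), Reln (0.76) and Mmrn1 (0.72), and the log2 fold changes of Pdpn (-0.070), Itga9 (-0.030) and Cdh5 (-0.056) changed sign. With library quality weights Prox1 (-0.063), Flt4 (-0.097), Stab1 (-0.087), Itga9 (-0.0044), Sox18 (-0.079), Kdr (-0.037) and Cdh5 (-0.086) changed sign, as did Itgb1 (0.018) with quantile normalization. Leaving out 1 library at a time, between 0 and 3 members passed (3 without 8N, with 252 genes in all), and log2 fold changes ranged from 0.43 to 1.28 for Lyve1, 0.57 to 1.28 for Reln, 0.49 to 1.25 for Mmrn1, -0.065 to 0.45 for Prox1, -0.13 to 0.33 for Pdpn, -0.077 to 0.031 for Nrp2, -0.011 to 0.36 for Sox18 and -0.19 to 0.0078 for Itgb1. Klhl4 passed without 6R (0.63), 10N (0.64) or 8N (0.73), and fell to 0.35 without 5L, 0.40 scaled to endothelial markers and 0.19 with library quality weights. The exact tests of Prox1 (-0.065 to 0.45) and Pdpn (-0.13 to 0.33) had the same ranges. Relative to endothelial markers they were -0.13 to 0.26 for Prox1, -0.038 to 0.095 for Flt4, -0.21 to 0.22 for Pdpn and -0.048 to 0.16 for Stab1. The number of pairs of members with an adjusted p under 0.05 was 13 over all libraries, 8 within treatment groups, 4 without the 2 libraries farthest from the median, and 4 relative to endothelial markers. Counted anew over the 21 pairs without 1 library, there were between 7 (without 6L) and 14 (without 5L). No paired analysis was run, because the labels do not pair tumors across treatments. Across treatments only 5N and 5L share a number, and within the agonistic CD40 mAb group 6L and 6R do. The paper describes a correction for harvest day, which the sample labels used here do not hold. Treatment was the only term in the fits, so an effect of harvest day was not tested. Few reads limit Prox1 (18 in 7N), Reln (20 in 7N) and Stab2 (1 in 6L and 6R).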
